A study of Sus scrofa with 11 samples.

Results

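Fatty acids are made in the cytosol from citrate that leaves the mitochondrion. *SLC25A1* encodes the citrate carrier, *ACLY* the lyase that splits citrate into acetyl-CoA, *ACACA* the carboxylase that turns acetyl-CoA into malonyl-CoA and *FASN* the synthase that builds palmitate from both, with NADPH from malic enzyme (*ME1*). *ELOVL6* lengthens palmitate to stearate, *SCD* puts a double bond into stearate to give oleate, and *SREBF1* encodes SREBP-1, a transcription factor that activates the genes of this route. In pigs the adipocyte is the main site of this synthesis, and marbling fat is made up of adipocytes that lie between muscle fibres, so RNA from a whole muscle holds the transcripts of both.

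These genes were examined in the *M. semimembranosus* (SM) of 11 purebred Duroc gilts that were fed isoenergetic finisher diets for 63 days. The HP diet (n = 6 pigs) held 217 g/kg crude protein and 13 g/kg lysine, and the LP diet (n = 5 pigs) 128 g/kg and 7 g/kg. Each array (Affymetrix Porcine Genome) held the RNA of 1 pig, and replicates are therefore pigs. A member was any probe set, that is, a group of short probes read as a single level, for which the platform annotation gave 1 symbol out of the 8 above. That rule found 15 probe sets for 7 of the 8 genes, out of 23999 probe sets and 6765 genes, while *ACLY* had none and was not analysed here.

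Levels are the deposited values on a log2 scale, so that a difference of 1 is a doubling of signal, and all arrays share a median of 6.72. An array was counted as measuring a probe set where the level lay over the highest of the 23 negative control probe sets on that array (1.96 to 3.58). Of the 15 probe sets, 10 were measured in most pigs of each diet and stood for 6 genes, and the other 5 (both of *ACACA* and 3 of the 4 of *FASN*) were not. Differences between LP and HP were called in limma where the unadjusted *P* was at most 0.05, the same number as the study set for the P-like values of puma, and an exact permutation test over the 462 ways to split the pigs is given beside it. Both tests were two-sided.

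Across the 11 arrays, 74.9% to 85.3% of probe sets lay over the negative controls. LP minus HP was -0.26 for the mean of the 27 hybridisation spike-in probe sets (exact permutation *P* = 0.186) and -0.43 for the 3′ minus 5′ signal of actin (exact permutation *P* = 0.123). HP pigs 1, 2 and 4 had the brightest upper end, with a 99th percentile of 13.1 to 13.3 against 12.5 to 12.9 on the other arrays. The 9 muscle fibre markers found, such as the myosin *MYH2* and the creatine kinase *CKM*, were read by their brightest probe sets. These were measured on all arrays and all had a difference below 0 (median -0.25), with none past the threshold. Dimmer probe sets of these genes went both ways, at 0.07 for *TTN*, 0.37 for *DES* and -0.22 to 0.001 for *PYGM*.

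*SCD*, *FASN* and *SLC25A1* were called higher in LP muscle, by 3.58-, 2.67- and 1.39-fold, and no member was called lower. Of the 15 member probe sets, 10 had a difference above 0 and 5 below 0. Those above 0 include all *ELOVL6* probe sets, the dimmer *ME1* one at 3.65e-05 and 2 that were not measured in most pigs of each diet. The *FASN* fold includes HP pig 5, whose level was not over its negative control. Without that pig the *FASN* difference was 0.97. The 3 probe sets called make up 3 of 15, where 2.15% of all probe sets were called higher and 2.97% lower. Read by the brightest probe set of each gene, 3 of 7 genes were called higher, against 1.57% higher and 3.16% lower over all genes. The median difference was 0.49 over the 10 measured members and 0.46 over all 15, beside -0.02 over all probe sets tested. After Benjamini-Hochberg adjustment of the limma *P* values over all 23999 probe sets, no member and no other probe set stayed under 0.05 (smallest adjusted *P* = 0.644). No member probe set separated the diets without overlap, which 0.579% of all probe sets did.

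**Figure D1:**
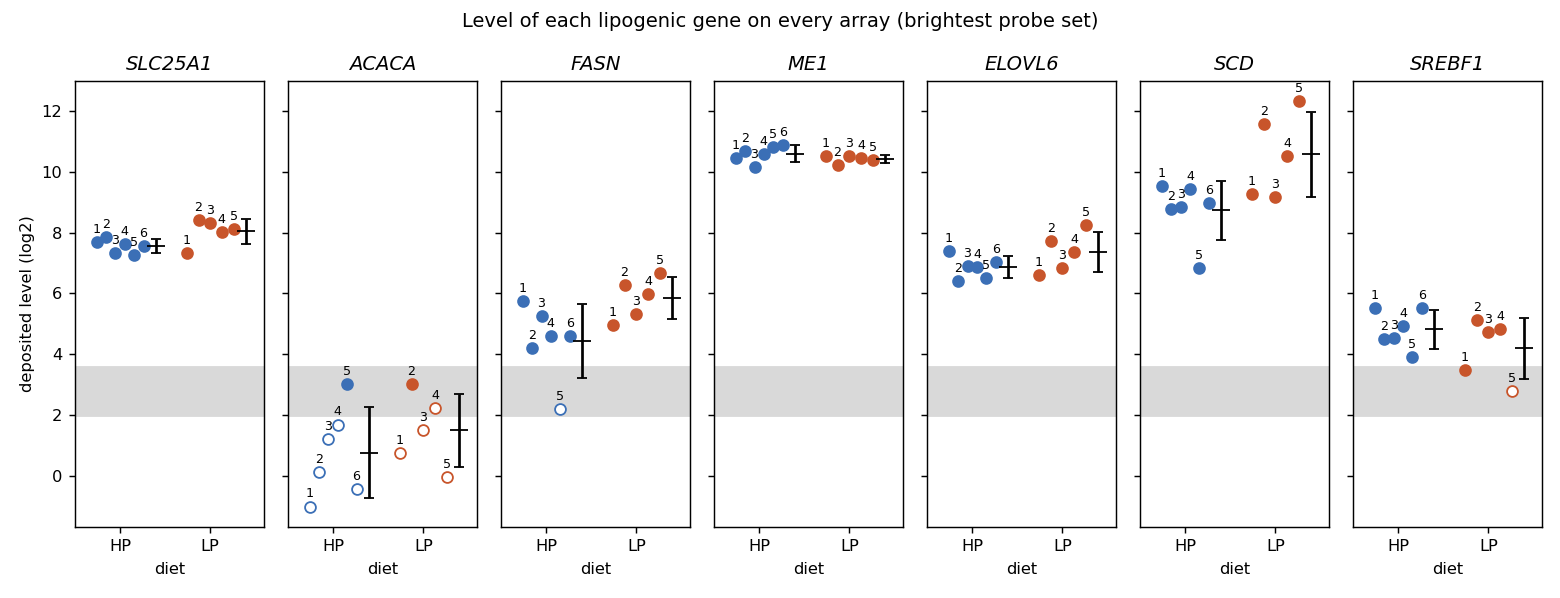
Deposited log2 level of the brightest probe set of each gene on every array, with HP pigs in blue and LP pigs in orange and the pig number over each point. Filled points lie over the highest negative control of their own array and open points do not, the grey band spans those controls over the arrays (1.96 to 3.58), and bars give the mean and SD of each diet. *SCD* spreads from 6.83 to 12.32, whereas *ME1* stays between 10.14 and 10.90 and *ACACA* lies in or under the band.

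The largest difference among the measured members was that of *SCD*, the desaturase that makes oleate. The HP pigs ran from 6.83 (pig 5) through a median of 8.91 to 9.54, and the LP pigs, from 1 to 5, had levels of 9.28, 11.59, 9.16, 10.53 and 12.32. All 5 LP pigs thus lay over the HP mean and 3 of them (2, 4 and 5) over the highest HP pig, while LP pigs 1 and 3 sat inside the HP range. The LP mean was 10.58 ± 1.39 (SD, n = 5), against 8.74 ± 0.98 (SD, n = 6) for the HP pigs. The difference of 1.84 had a standard error of 0.66 (limma unadjusted *P* = 0.0174, adjusted *P* = 0.931, exact permutation *P* = 0.0195).

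*SCD* also varied widely among pigs on the same diet. The highest and lowest LP pigs were 8.97-fold apart and the HP pigs 6.51-fold. Around the diet means its SD was 1.18, which ranked 33 among the 12000 probe sets with a mean level over the median. Diet took up 42.4% of its variance over the 11 pigs. Leaving out any single array gave a difference of 1.40 to 2.20 that still passed in limma.

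*FASN*, the synthase that produces palmitate, was measured in most pigs of each diet by 1 of its 4 probe sets. On that probe set the HP pigs ran from 2.19 (pig 5) through a median of 4.59 to 5.74, and the LP pigs, from 1 to 5, had levels of 4.95, 6.27, 5.33, 5.98 and 6.68. HP pig 5 fell under the negative control of its array, so 5 of 6 HP pigs and 5 of 5 LP pigs measured it. As for *SCD*, LP pigs 2, 4 and 5 were the ones over the highest HP pig. LP minus HP was 1.42 with a standard error of 0.57 (limma unadjusted *P* = 0.0311, exact permutation *P* = 0.0346). The call was lost without HP pig 2 (1.37) and without LP pig 2 (1.31), 4 (1.38) or 5 (1.21), and without HP pig 5 the difference was 0.97 and still passed. The other *FASN* probe sets gave -0.50, -0.99 and 0.46 with none called. They were over the controls on 6 (4 HP and 2 LP), 0 and 1 of the 11 arrays, and their deviations from the diet means correlated with those of the brightest at r = -0.01, 0.32 and 0.35.

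For *SLC25A1*, which carries citrate out of the mitochondrion, all 11 arrays measured its single probe set. The HP pigs lay between 7.26 (pig 5) and 7.86, with a median of 7.60, and the LP pigs, from 1 to 5, had levels of 7.34, 8.41, 8.31, 8.03 and 8.12. Every LP pig but pig 1 was over the highest HP pig. The difference was 0.48 with a standard error of 0.20 (limma unadjusted *P* = 0.0350, exact permutation *P* = 0.0433). It passed no longer without HP pig 3 (0.43), 5 (0.42) or 6 (0.48), or without LP pig 2 (0.39), 3 (0.41), 4 (0.48) or 5 (0.46), and without LP pig 1 it was 0.66.

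*ELOVL6*, the elongase that hands stearate to *SCD*, had 4 probe sets, all measured on all 11 arrays, and none was called. On the brightest, the HP pigs ran from 6.42 through a median of 6.90 to 7.39, and the LP pigs, from 1 to 5, had levels of 6.61, 7.73, 6.84, 7.35 and 8.26. LP pigs 2 and 5 exceeded the highest HP pig there, and on the other 3 probe sets too. LP minus HP was 0.50 ± 0.30 (SE) on this probe set (exact permutation *P* = 0.145), and 0.61 ± 0.31 (exact permutation *P* = 0.0996), 0.75 ± 0.41 (exact permutation *P* = 0.130) and 0.43 ± 0.32 (exact permutation *P* = 0.240) on the others. Leaving out LP pig 5 brought these 4 differences to 0.27, 0.40, 0.48 and 0.18. Single refits passed limma for the brightest without LP pig 1 (0.68), for the next without HP pig 1 (0.75) or LP pig 1 (0.77) and for the third named without HP pig 1 (0.93) or LP pig 3 (0.997). The probe sets ranked the pigs much alike, with r of 0.77 to 0.98 between their deviations from the diet means. In all 4, the LP pigs stood in the order 5, 2, 4 from the top, the same order as for *SCD* and *FASN*.

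*ME1*, a source of NADPH for the synthase, had differences close to 0. Its brightest probe set ran from 10.14 to 10.90 in HP with a median of 10.64, and the LP pigs, from 1 to 5, had levels of 10.51, 10.23, 10.51, 10.47 and 10.39. All 5 LP pigs were under the HP mean and none was under the lowest HP pig. LP minus HP was -0.18 ± 0.14 (SE, exact permutation *P* = 0.210), and it passed limma in a single refit, without HP pig 3 (-0.27). The dimmer probe set, which followed the brighter at r = 0.77, had a mean of 9.19 on either diet.

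*SREBF1*, the regulator, was not called, and its difference was below 0. HP pigs ran from 3.90 (pig 5) through a median of 4.73 to 5.52, and LP pigs, from 1 to 5, had levels of 3.47, 5.13, 4.73, 4.83 and 2.78. It was measured in all 6 HP pigs and in 4 of the 5 LP pigs. LP pig 5, the pig with the highest *SCD*, *FASN* and *ELOVL6*, had the lowest *SREBF1* and fell under the control of its array. LP minus HP was -0.62 ± 0.46 (SE, exact permutation *P* = 0.245), and -0.27 without LP pig 5.

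*ACACA*, the carboxylase at the entry to the route, could not be read. Its probe sets were over the controls on 2 and 1 of the 11 arrays, with levels from -1.02 to 3.02 and from -0.94 to 2.74, and their differences had opposite signs. No fold is given for values not well above background.

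**Figure D2:**
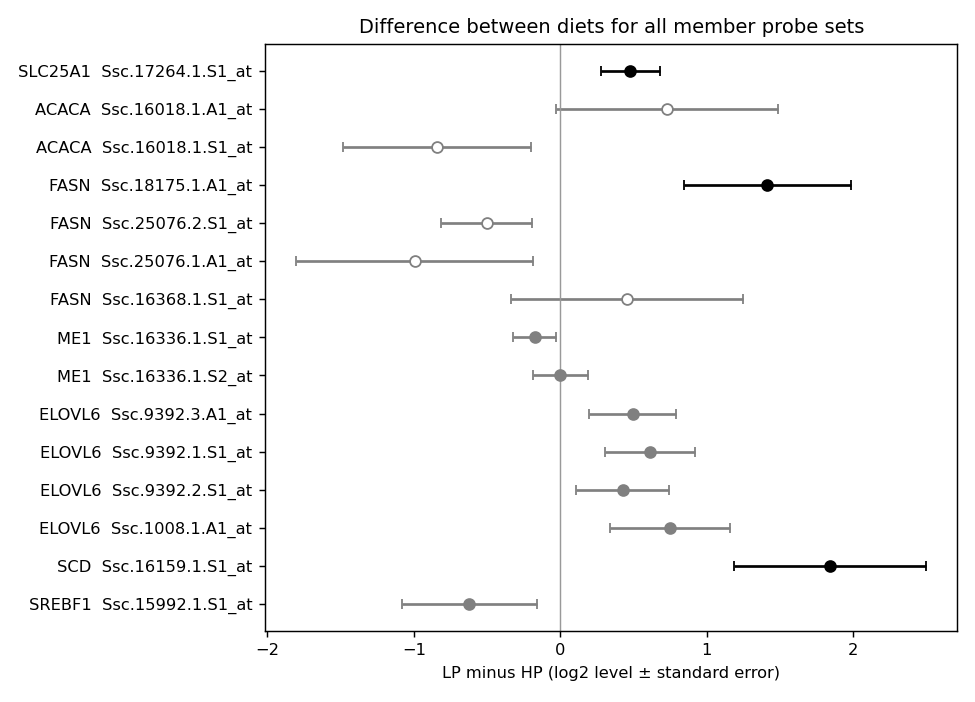
LP minus HP (log2, x axis) for all 15 member probe sets, with bars of 1 standard error. Black marks passed an unadjusted limma *P* of 0.05 and grey did not, and open marks are the 5 probe sets that were not over the negative controls in most pigs of each diet. The measured probe sets of *SCD*, *FASN*, *ELOVL6* and *SLC25A1* lie right of 0, and those of *ME1* and *SREBF1* at or left of it.

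To see which members varied together among pigs, each array was expressed as its deviation from its diet mean, so that the diets themselves add nothing to a correlation. Among the 7 genes, 21 pairs were tested by permutation within the diets, and 3 passed a Benjamini-Hochberg adjusted *P* of 0.05. These were the pairs formed by *SCD*, *FASN* and *ELOVL6*, in which a pig with more of one mRNA had more of the others. The remaining 18 pairs did not pass, and 11 of the 21 had a positive r.

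*SCD* and *FASN* correlated at r = 0.85 (permutation *P* = 0.00080, adjusted *P* = 0.0168) and rho = 0.88 (permutation *P* = 0.00117, adjusted *P* = 0.0123). Without the pigs at the ends of the *SCD* range, HP pig 5 and LP pig 5, r was 0.70. *SCD* and *ELOVL6* gave r = 0.87 (permutation *P* = 0.00319, adjusted *P* = 0.0223) and rho = 0.88 (permutation *P* = 0.00305, adjusted *P* = 0.0213), and r was 0.86 without the same pigs. For *FASN* and *ELOVL6* r was 0.73 (permutation *P* = 0.00206, adjusted *P* = 0.0216) and rho 0.91 (permutation *P* = 0.00031, adjusted *P* = 0.00651), with r = 0.90 without them.

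Within the 6 HP pigs alone, r was 0.92 for *SCD* with *FASN*, 0.65 for *SCD* with *ELOVL6* and 0.75 for *FASN* with *ELOVL6*, and none passed the exact permutation test after adjustment over the 21 pairs (adjusted *P* = 0.213 or more). With any single array left out, these 3 coefficients ranged over 0.79 to 0.88, 0.80 to 0.92 and 0.68 to 0.91. The number of pairs past the adjusted threshold fell to 0 without LP pig 1 or LP pig 4 and to 1 without LP pig 3. Only 2 of the 5975 non-member probe sets compared, those of *FAH* and *MGST1*, had a higher r with *SCD* than the brightest *FASN* and *ELOVL6* probe sets. The 5975 all had a mean level over the median, which this *FASN* probe set (mean 5.07) did not. For the dimmer *FASN* probe sets, 4.47% to 56.8% of the 5975 had a higher r. That share was 6.16% for *SLC25A1*, 43.6% for *SREBF1* and 70.4% to 92.4% for the probe sets of *ME1* and *ACACA*.

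*SREBF1* stood outside this group over the 11 pigs, with r = 0.13 against *SCD*, 0.34 against *FASN* and 0.07 against *ELOVL6* (permutation adjusted *P* of 0.468 or more). LP pig 5 weighed heavily on these values. Without it, r with *ELOVL6* was 0.83 (permutation adjusted *P* = 0.0409), r with *FASN* was 0.73 (permutation adjusted *P* = 0.0492) and r with *SCD* was 0.74 (permutation adjusted *P* = 0.0599). Within the 6 HP pigs, *SREBF1* followed *SCD* at r = 0.80, *ELOVL6* at 0.84 and *FASN* at 0.75 (exact permutation *P* = 0.0181, 0.0319 and 0.0542, all 0.213 after adjustment). Whether the relation differed between the diets was not tested.

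*SLC25A1*, which was higher in LP like *SCD* and *FASN*, did not pass with either among pigs, at r = 0.50 with *SCD* (permutation adjusted *P* = 0.411) and 0.43 with *FASN* (permutation adjusted *P* = 0.411). *ME1* had negative coefficients with all the others, from -0.60 with *FASN* to -0.06 with *SREBF1*, none of which passed.

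**Figure D3:**
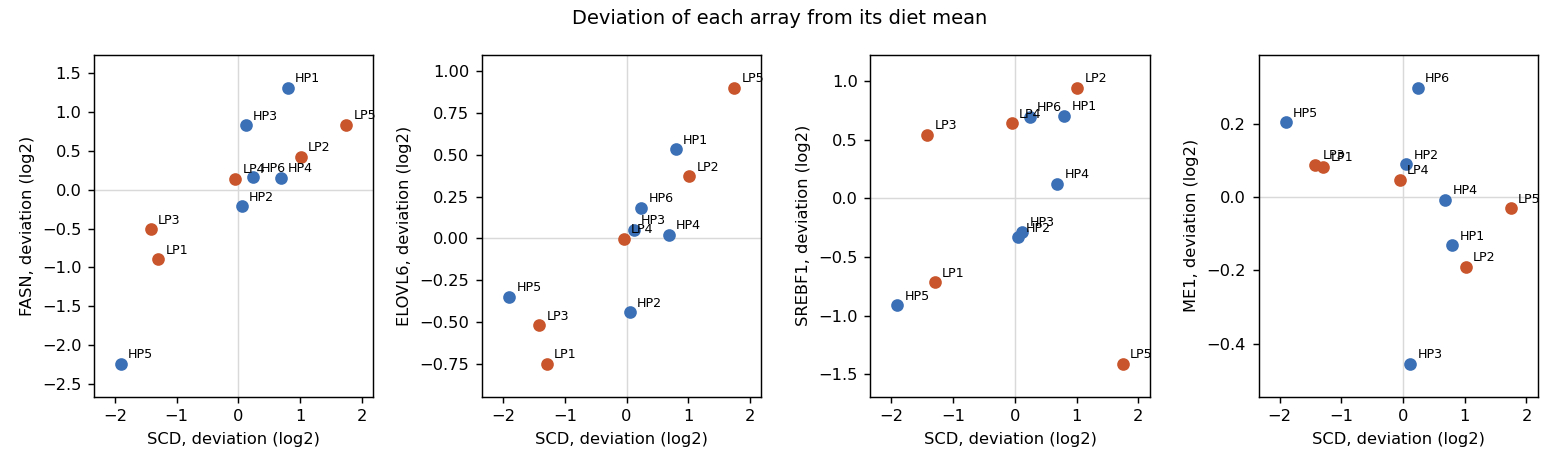
Deviation of each array from its diet mean (log2) for *SCD* on the x axis and *FASN*, *ELOVL6*, *SREBF1* and *ME1* on the y axes, with HP pigs in blue and LP pigs in orange. Pigs line up along a rising diagonal for *FASN* (r = 0.85) and *ELOVL6* (r = 0.87), whereas for *SREBF1* LP pig 5 lies at the lower right, away from the others.

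Markers of adipocytes were read beside these results, because muscle RNA carries adipocyte transcripts and in bulk tissue fewer cells of a type and less RNA per cell cannot be told apart. Of 20 listed markers, 14 were found, and *PLIN1*, the coat protein of the fat droplet, was among the 6 not analysed here. *DGAT2*, which adds the last acyl chain of triacylglycerol, was the only one of the 14 called on its brightest probe set (0.78 ± 0.27 (SE), 1.72-fold, exact permutation *P* = 0.0260). Over all genes, 1.57% were called higher and 3.16% lower. Counted by probe set, 2 of 18 were called higher and 0 lower, beside 2.15% and 2.97% of all probe sets. Differences were above 0 for 8 markers and below 0 for 6, with a median of 0.04. *ADIPOQ*, the adipokine adiponectin, differed by 0.22 (exact permutation *P* = 0.628) and *FABP4*, a fatty acid carrier of adipocytes and capillaries, by -0.11 (exact permutation *P* = 0.604).

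*LEP*, the adipokine leptin, differed by 0.74 on its brightest probe set (exact permutation *P* = 0.0887), which passed limma without HP pig 4 (0.86), HP pig 6 (0.82) or LP pig 3 (1.01). Another *LEP* probe set, dimmer by its mean over all arrays, was measured in 4 of 6 HP pigs and in all 5 LP pigs. It was called higher in LP (limma unadjusted *P* = 0.0203, exact permutation *P* = 0.00866). Its LP levels of 6.20 to 7.83 were all over the highest HP level of 5.71. Its diets did not overlap, as for 0.579% of all probe sets, and no fold is given because 2 HP levels were not over the controls.

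The mean of the 11 adipocyte markers that every array measured lay between 7.53 (HP pig 5) and 8.30 (HP pig 1) in HP and between 7.86 and 8.29 (LP pig 5) in LP, with a difference of 0.12 (exact permutation *P* = 0.392). Besides *ADIPOQ* and *LEP*, this mean holds genes such as *GPD1* and *LPL* that muscle fibres express as well. *DGAT2* is also in the mean, the marker called higher in LP and the non-member nearest to the members (r = 0.90). The relations below are therefore in part between the members and a gene that varies with them. The marker mean followed *SCD* among pigs at r = 0.84 (permutation *P* = 1e-05, the smallest the shuffles allow, adjusted *P* = 7e-05) and rho = 0.88 (permutation *P* = 2e-05). It followed *FASN* at r = 0.84 (permutation adjusted *P* = 0.00726) and rho = 0.85 (permutation *P* = 0.00346), and *ELOVL6* at r = 0.82 (permutation adjusted *P* = 0.00122) and rho = 0.83 (permutation *P* = 0.00128). Without the pigs whose levels, with diet means left in, lay farthest from the median of each gene, these r were 0.69, 0.69 and 0.82. Those pigs were HP pig 5 and LP pig 5 for *SCD* and *FASN*, and LP pigs 2 and 5 for *ELOVL6*. They are not always the pigs with the largest deviations. The other 4 members did not pass over the 11 pigs.

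With *ADIPOQ* alone in place of the mean, r was 0.86 for *SCD*, 0.89 for *FASN* and 0.77 for *ELOVL6* (permutation adjusted *P* = 0.0063, 0.0063 and 0.0123). Without the same pigs as were left out for the mean, r was 0.74, 0.83 and 0.68. *ME1* ran the other way, at r = -0.61 (permutation adjusted *P* = 0.146) and rho = -0.79 (permutation adjusted *P* = 0.00922), with r = -0.91 without HP pigs 3 and 6. Among the HP pigs alone *SREBF1* also followed the marker mean (r = 0.89, exact permutation adjusted *P* = 0.0454), and over all pigs but LP pig 5 it did so at r = 0.77 (permutation adjusted *P* = 0.0173), against r = 0.31 over the 11.

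The diet differences were refitted with an adipocyte marker level as a covariate. The marker mean differed by 0.12 between the diets and holds genes that muscle fibres also express. Such a covariate does not hold fat content constant. Whether adipocyte content accounts for the diet differences was not tested. With the marker mean as a covariate LP minus HP was 1.33 ± 0.39 (SE) for *SCD* (limma unadjusted *P* = 0.0068) and 0.98 ± 0.35 for *FASN* (limma unadjusted *P* = 0.0193), and with *ADIPOQ* as the covariate 1.54 ± 0.37 and 1.14 ± 0.28. Without a covariate the differences were 1.84 ± 0.66 (SE) for *SCD* and 1.42 ± 0.57 for *FASN*, so both the differences and their standard errors were smaller with one. Both genes passed in either fit. *SLC25A1* was 0.42 and 0.45, against 0.48 without a covariate, and passed in neither. Passing or not in these fits does not separate genes by their dependence on adipocyte content. The next brightest *ELOVL6* probe set passed with *ADIPOQ* as the covariate (0.47 ± 0.18 (SE), limma unadjusted *P* = 0.0252) and not with the marker mean (0.41). Markers of the other cells a muscle sample holds had no call in limma on their brightest probe sets. *DCN*, the matrix proteoglycan decorin, passed the exact test alone (-0.28, exact permutation *P* = 0.0346), and 5 of the 6 fibroblast markers were below 0. Their median differences were -0.06 for 7 endothelial, -0.27 for 6 fibroblast and -0.30 for 5 macrophage markers. The mean of the spike-ins followed none of the 7 members (r from -0.06 to 0.39, permutation adjusted *P* of 0.920 or more).

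**Figure D4:**
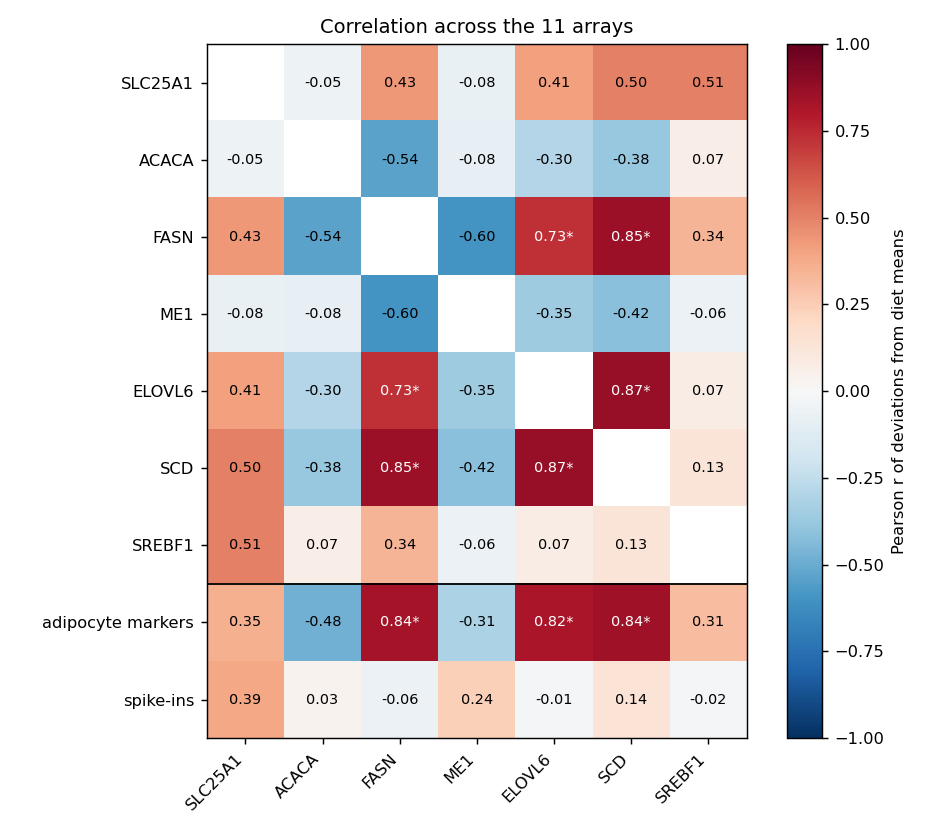
Pearson r between the deviations from diet means over the 11 arrays, for each pair of genes and, under the line, for each gene with the mean of 11 adipocyte markers and with the mean of the 27 spike-in probe sets. An asterisk marks a Benjamini-Hochberg adjusted permutation *P* under 0.05 within its family of 21 pairs or 7 relations. *SCD*, *FASN* and *ELOVL6* form a block of r from 0.73 to 0.87, and the same genes have r from 0.82 to 0.84 with the adipocyte markers.

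The genes on either side of the route were read from lists of suppliers, users and regulators. Of 64 genes listed, 41 were found. By their brightest probe sets 1 of the 41 was higher in LP and 2 were lower, beside 1.57% and 3.16% of all genes, and the median difference was -0.07. Among the 13 genes that supply carbon and NADPH, such as the pyruvate carrier subunits *MPC1* and *MPC2* and the pentose phosphate enzymes *PGD*, *TKT* and *TALDO1*, none passed (median -0.07). *TALDO1* came nearest on the higher side (0.43, exact permutation *P* = 0.0887) and *MPC2* on the lower (-0.30, exact permutation *P* = 0.0736).

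The 3 calls came from the 13 genes of elongation, desaturation and activation (median -0.08). *SCD5*, another stearoyl-CoA desaturase, was lower in LP by 0.38 with a standard error of 0.17 (exact permutation *P* = 0.0433), the opposite direction to *SCD*. *ACSL1*, which activates fatty acids to acyl-CoA, was lower by 0.44 with a standard error of 0.19 (exact permutation *P* = 0.0455). Each of these held in 3 of the 11 fits with an array left out, *SCD5* without HP pig 5 and LP pigs 2 and 4 and *ACSL1* without HP pig 3 and LP pigs 4 and 5, over ranges of -0.48 to -0.33 and -0.56 to -0.35. *ACSL6*, a further acyl-CoA synthetase, was called higher (exact permutation *P* = 0.0238), but only 2 HP and 3 LP arrays measured it. Its difference was 1.27 as deposited and 0.42 with low values raised to the 20th percentile, and without HP pigs 1, 2 and 4 it was 0.55 and no longer passed. *ELOVL1* (-0.28, exact permutation *P* = 0.0455) and *HACD3* (-0.15, exact permutation *P* = 0.0173), both of very long chain elongation, passed the exact test and not limma. The dimmer *HACD3* probe sets passed neither (-0.23, -0.09 and -0.17, exact permutation *P* = 0.208, 0.325 and 0.539). The share of all probe sets that pass the exact test is not given here.

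No regulator passed on its brightest probe set, out of 15 with a median of -0.03. These include the partners of SREBP-1, *SCAP* (-0.13) and *INSIG1* (-0.03), the paralogue *SREBF2* (0.03), the oxysterol receptor *NR1H3* (0.04) and the adipogenic receptor *PPARG* (0.08). *FBXW7*, a ubiquitin ligase subunit that marks SREBP for breakdown, had 3 dimmer probe sets higher in LP, by 0.44, 0.41 and 0.31 (exact permutation *P* = 0.0108, 0.0238 and 0.00866). Its 2 brighter ones differed by 0.24 and 0.22 (exact permutation *P* = 0.0736 and 0.113). Counted by probe set, 3 of the 29 regulator probe sets were called higher, all of *FBXW7*, and 0 lower. Over all probe sets the shares were 2.15% and 2.97%. *FBXW7* was named after its values were seen, and any link to SREBP was not tested.

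**Figure D5:**
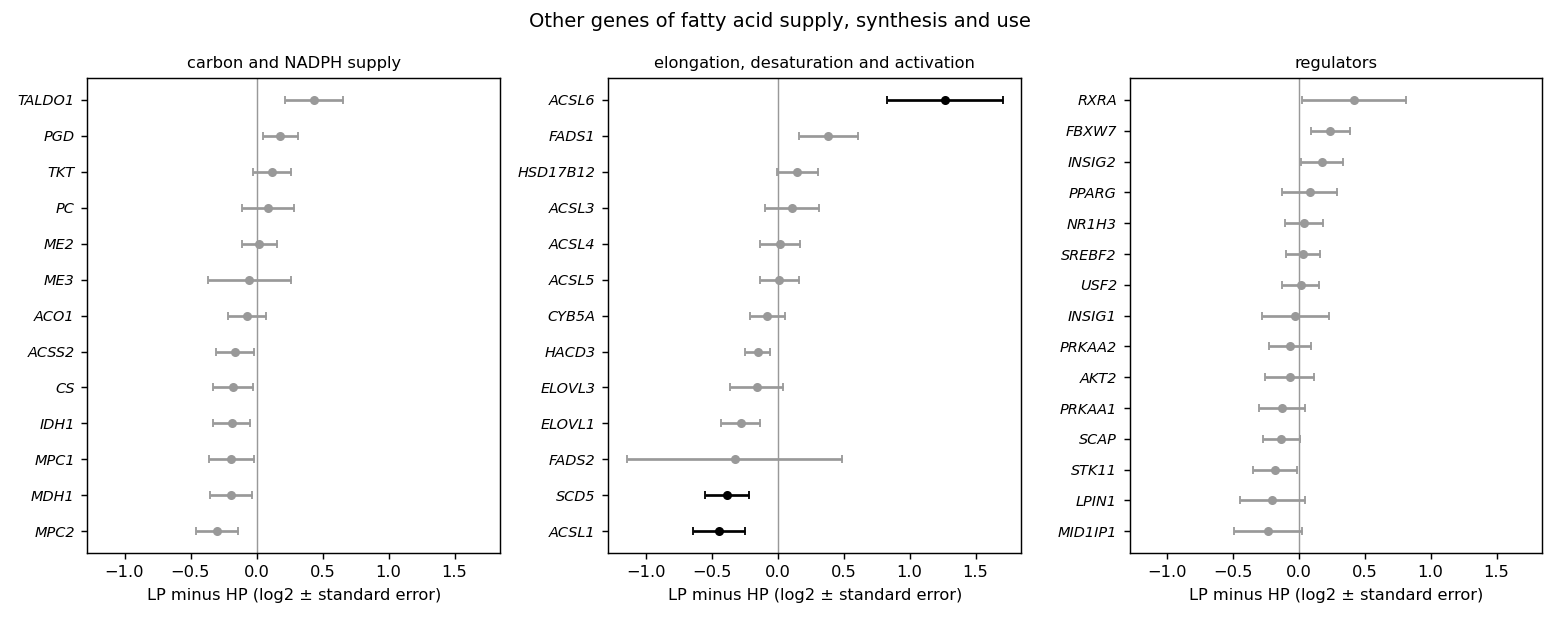
LP minus HP (log2, x axis) with bars of 1 standard error for the 41 listed genes found, each by its brightest probe set, in 3 panels by role. Black marks passed an unadjusted limma *P* of 0.05, which were *ACSL6* on the right and *SCD5* and *ACSL1* on the left, and most other genes lie within 0.3 of 0.

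The patterns nearest to that of the members were sought among 5975 non-member probe sets with 1 symbol and a mean level over the median, by r over the 11 deviations. The members were represented by the mean of their 6 measured genes, each standardised. *DGAT2* came first (r = 0.90), followed by *MAL2*, a membrane trafficking protein (0.86), the aldolase *ALDOC* (0.86), *PPARG* (0.84), *FAH* of tyrosine breakdown (0.84), *MYLIP*, a ligase that removes the LDL receptor (0.83), *CTNNBIP1* (0.83), *PTGR1* (0.82), *MAD2L1* (0.82) and the retinoid receptor *RXRG* (0.82). Without HP pig 5 and LP pig 1, the pigs farthest out, these coefficients fell to between 0.27 (*CTNNBIP1*) and 0.75 (*MAL2*). Besides *DGAT2*, *ALDOC* was higher in LP (0.79 ± 0.32 (SE), exact permutation *P* = 0.0368) and *MAD2L1*, a spindle checkpoint protein, was lower (-0.53 ± 0.17 (SE), exact permutation *P* = 0.0130). The probe sets most like *SCD* alone were *FAH* (r = 0.91), the glutathione transferase *MGST1* (0.89), *WLS*, needed for Wnt secretion (0.85), *MAL2* (0.84) and *DGAT2* (0.84). As these were picked as the highest of 5975, their r is a description with no test.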

How the data were processed

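Per the labels, SM RNA was extracted with TRIZOL, amplified and biotin-labelled, and each pig had 1 array. The deposited values are the authors' log2 levels per probe set. The study's methods name R, Bioconductor and puma, while background correction and normalisation were not given in the sources used here. The levels were used as deposited, and all 11 columns were used. Groups came from the labels. The gilts were blocked on initial weight, and as weight block, pen and slaughter date were not known per pig, none entered the fit. The paper gives 2 pen groups without saying whether these were the diets. If they were, pen cannot be told apart from diet. Same-numbered HP and LP pigs were not treated as pairs (r of their deviations from -0.07 to 0.08). For 2 of the 5 numbers the best match was the same-numbered pig. These r cannot show whether the numbers follow the weight blocks.

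Symbols came from the platform annotation, in which 10069 probe sets had 1 symbol, 198 several and 13732 none, and 124 control probe sets were left out. The members and gene lists, taken from textbook knowledge, were chosen with earlier results of these data known, and no support is drawn from them. LP minus HP was fitted over all 23999 probe sets in R 4.3.3 with limma 3.58.1 (two-sided, constant prior), a script tested on simulated data. A gene was read by its probe set with the highest mean. Correlations were computed with NumPy 2.4.6 (ranks with SciPy 1.17.1), permuted within diets (100000 shuffles) and adjusted by Benjamini-Hochberg. Outlying pigs were sought with Dixon's test. The number of arrays limits the precision.

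The genes named were all members, the list genes that passed limma or were needed to read a count, *ADIPOQ*, *PLIN1*, *FABP4* and *LEP*, the 10 probe sets most like the members and the 5 most like *SCD*. *TALDO1*, *MPC2*, the genes of the FBXW7 and SREBP system and *ELOVL1*, *HACD3* and *DCN*, which passed only the exact test, were added after their values were seen. Alternatives were quantile normalization, median centring, a 20th percentile floor, leaving out probe sets below the median level, a trended robust prior, array weights, a replicate block, each array left out, the exact test, raw levels and gene means over probe sets. Leaving out HP pigs 1, 2 and 4 together and the adipocyte covariates were chosen after seeing the data. No sequences are printed, as none for these genes were in the files used here.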

Additional observations from a re-analysis of the deposited data

Results flagged for a closer look

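*SCD* in HP pig 5 stood apart from the other HP pigs. Its level of 6.83 lay under the next lowest HP pig at 8.79, and this gap was 0.724 of the HP range, over Dixon's critical value for 6 arrays. It was the only one of 20 sets of values tested that did so, and about 1 such set in 20 is found by chance. The same pig also had the lowest *FASN*, *SLC25A1*, *SREBF1* and adipocyte marker mean of the HP group, and its spike-in mean (11.9) lay within the HP range of 11.3 to 12.2. Without it *SCD* was higher in LP by 1.46 and still passed in limma.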

How the results depend on the processing

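*SCD* passed under 21 of 22 alternatives, *FASN* under 16 of 21 and *SLC25A1* under 12 of 22, each with the same sign throughout. These alternatives are not independent of each other. Median centring changed nothing, as all arrays already shared a median, the exact test uses the same difference, and the fits without 1 array share most of their pigs. The replicate number does not mark shared animals here, and whether it follows the weight blocks is not known. With that number as a block, the 3 calls were lost (*SCD* 1.89, *FASN* 1.45, *SLC25A1* 0.48). In that fit 1 member, the *FASN* probe set measured on 6 arrays, was called lower (-0.60). The count of member calls was thus 1 in place of 3 and that of adipocyte markers 0 in place of 1. Leaving out 1 array gave 1 to 5 member calls, 1 to 4 in the pathway lists, 1 to 2 among adipocyte markers, 0 to 4 pairs and 3 to 4 adipocyte relations past the threshold. Without LP pig 2, 4 or 5 *SCD* was the only member called. Leaving out dim probe sets removed *FASN* and added an *ELOVL6* probe set, so the count stayed at 3. Quantile normalization gave 6 pathway calls (3 higher, 3 lower) in place of 3. Adipocyte calls rose to 2 with quantile normalization (*GPD1* 0.26), a trended robust prior (*LEP* 0.74), gene means and without HP pigs 1, 2 and 4 (*GPD1* 0.42). The dimmer *ME1* probe set, at 0 to 2 decimals, was -0.13 without those 3 pigs, -0.10 with array weights and -0.084 to 0.11 with 1 array left out. The causes of these shifts were not tested. Low signal limits *ACACA*, *ACSL6* and the dimmer *FASN* probe sets.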
